A study of Mus musculus with 4 samples.

Results

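The genes described here encode 37 lysosomal proteins of the mouse: 30 proteins of the lysosomal lumen (10 proteases, 9 glycosidases, 5 sulfatases, 4 lipid hydrolases and the precursors Psap and Grn) and 7 proteins of the lysosomal or endosomal membrane. They were found by gene symbol among the 54532 genes of the deposited count table, and each symbol had a single row. The table holds RNA-seq read counts per gene from bone marrow-derived macrophages, which were grown from marrow for 7 days in medium with 30% L929 conditioned medium as the source of macrophage colony-stimulating factor. The cells were then transfected for 24 h, either with a negative-control mimic (the control libraries, n = 2) or with a mimic of miR-204-3p (the mimic libraries, n = 2). Both groups were therefore transfected, and the labels give no mouse strain, age or sex and no untransfected group. A mimic is a synthetic RNA duplex that supplies a microRNA to a cell. Whether replicate libraries trace back to different animals or culture wells is not stated in the labels, so a p-value measures only how these samples scatter, and that scatter may be technical.

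Lysosomes are acidic organelles in which hydrolases break down proteins, glycans and lipids, and in macrophages they digest what the cell has engulfed. Most luminal hydrolases are made in the endoplasmic reticulum, tagged with phosphomannose in the Golgi and carried to endosomes by receptors, while membrane proteins line the organelle, move ions and lipids across it and do not need that tag. Transcription factors of the MiT/TFE family (Mitf, Tfeb, Tfe3 and Tfec) bind a short promoter element, known as the CLEAR element, in many lysosomal genes. Loss of single hydrolases or membrane proteins can cause lysosomal storage diseases.

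Depth was 15899235 to 16837826 counts per library, and 13186 genes passed the low-count filter. Levels are in CPM (read counts relative to library size, which was scaled with trimmed mean of M-values, or TMM, factors). Errors are SDs (n = 2) for levels and standard errors for log2 fold changes, and every fold change is mimic over control libraries. A gene was called higher or lower at an adjusted p under 0.05 (edgeR quasi-likelihood test, Benjamini-Hochberg adjustment over all tested genes). A very large part of the transcriptome differed, with 60.8% of tested genes called, 31.1% higher and 29.7% lower. When only library size was used for scaling, the median over all tested genes went from 0.04 to 0.40 on the log2 scale, so changes are given relative to the TMM scaling. The markers of the labelled cell type were summed at 15896 and 17479 CPM in the control libraries and 2964 and 2947 CPM in the mimic libraries, of which Lyz2 alone made up 13799 and 15307 and then 2146 and 2113 CPM. Of the 8 tested markers 7 were lower, namely Csf1r (691 and 772 against 51.9 and 48.0 CPM), Adgre1 (340 and 321 against 41.0 and 49.7 CPM), Lyz2, Itgam, Cd68, which is also one of the 37 genes, and the scarcely detected C1qa and Mrc1, which passed the low-count filter only through the control libraries. The IgG receptor gene Fcgr1 was higher, and Mertk, with at most 10 counts in a library, was not tested. In bulk RNA, fewer cells of a type and less RNA per cell cannot be told apart.

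In cells with the miR-204-3p mimic most genes of luminal lysosomal enzymes were lower, and a smaller group led by Cln3 and Grn was higher. All 37 genes were tested, and 22 were lower, 6 higher and 9 not past the threshold. That is 59.5% lower against 29.7% of all tested genes, and 16.2% higher against 31.1%. The same shares of all tested genes apply to the counts by role and by list below. The median log2 fold change was −0.69, against 0.04 for all tested genes. The lysosomal genes have high CPM, and genes of high CPM as a whole were more often lower: of the 2312 tested genes with a mean over the 4 libraries of at least 92.3 CPM, the lower quartile of the lysosomal genes, 43.1% were lower and 29.5% higher, with a median of −0.16. Of the 28 lysosomal genes above the same level 18 were lower and 5 higher, with a median of −0.69. This level was chosen after the values were seen. One of the 22 lower genes, Ctsh, passed the low-count filter only through its control libraries, and without it 21 of 36 were lower with a median of −0.64. The control and mimic libraries did not overlap for 31 of the 37 genes, against 80.7% of all tested genes. Decreases of at least 2-fold were called for 12 of the 37, against 16.1% of all tested genes, and increases of that size for 2, against 15.5%. With library size alone 18 of the 37 were lower and 10 higher, against 19.1% and 46.6% of all tested genes.

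**Figure D1:**
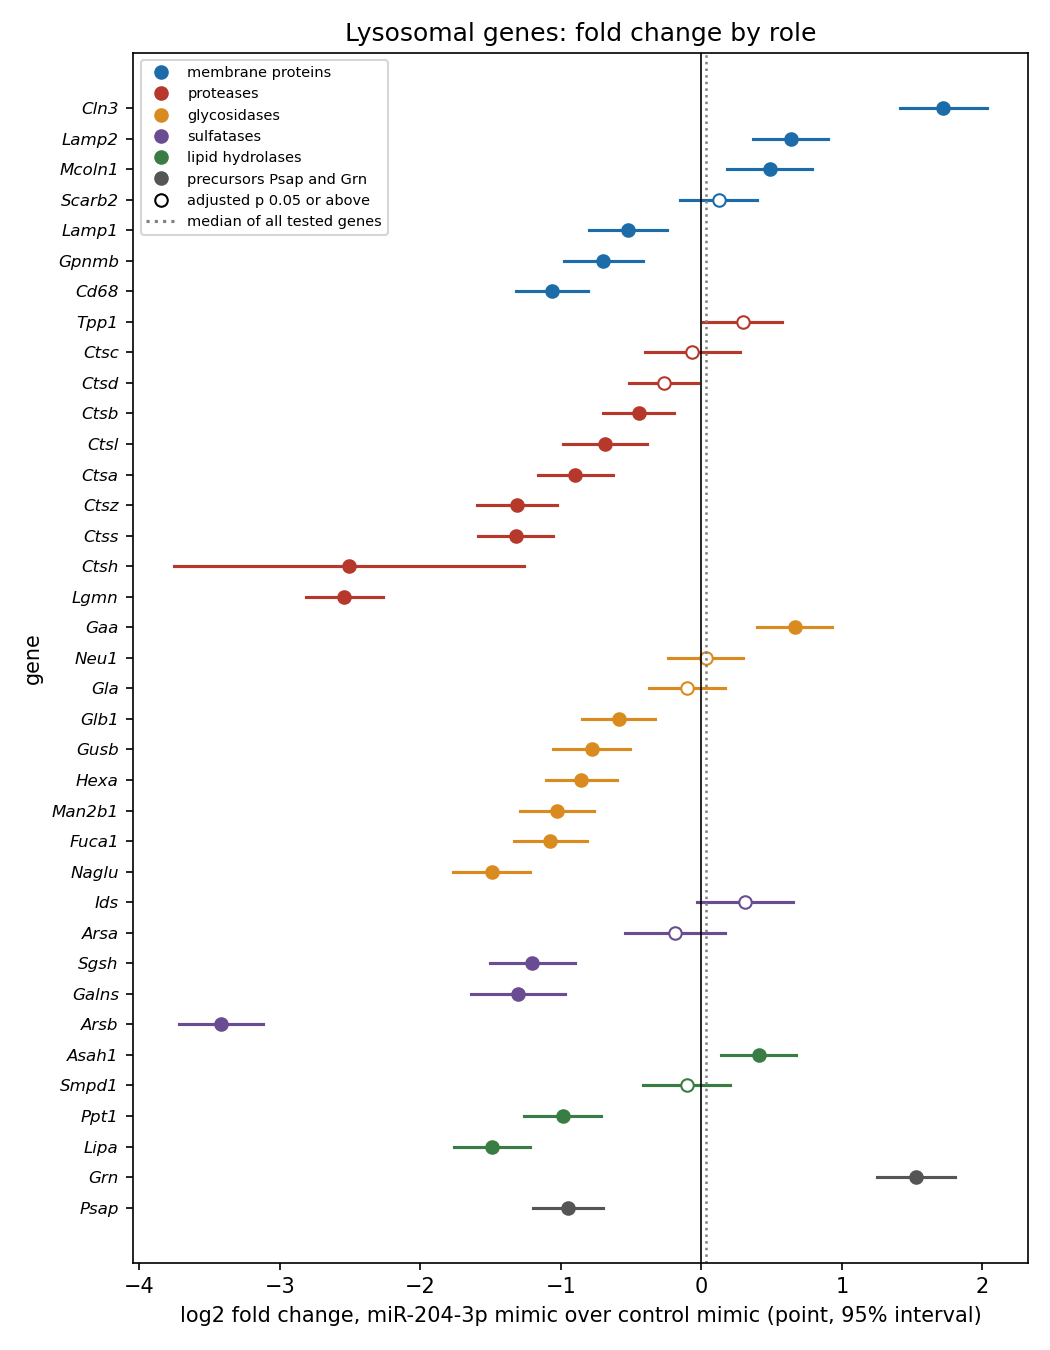
Log2 fold change of each of the 37 lysosomal genes, miR-204-3p mimic over control mimic (points, with 95% intervals of the edgeR fit as bars), grouped by role in colour. Filled points passed the threshold, and the values run from −3.42 for Arsb to 1.72 for Cln3, with the dotted line at the median of all tested genes, 0.04.

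The summed level of the 37 genes was 32147 and 33496 CPM in the control libraries and 22572 and 23840 CPM in the mimic libraries. As a share of all counts, which involves no TMM factor, they held 2.82% and 2.96% in the control against 2.58% and 2.68% in the mimic libraries. The mix within this sum also differed. Proteases held 47.3% and 46.4% of the lysosomal counts in the control against 43.9% and 41.0% in the mimic libraries, while Psap and Grn together held 13.6% and 13.5% against 20.2% and 21.5%.

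The sequence of the microRNA and the sites that pair with its seed are shown because the agent of the study is a microRNA, which pairs with transcripts mainly through its seed. The mature sequence, from RefSeq (GRCm38.p6, chromosome 19, 22750649 to 22750669, plus strand), has its seed, bases 2 to 8, in capitals, and the mimic's own sequence is not given in the labels.
miR-204-3p: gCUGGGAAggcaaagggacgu
The complement of the seed in a transcript is TTCCCAG, and an 8mer site adds an A, as TTCCCAGA. In the longest annotated 3′ UTR of each gene, 5 of the 37 lysosomal genes held TTCCCAG at least once, and 2 of these 5 held an 8mer. The share of 13.5% compares with 24.1% of the 11293 tested genes that have such a UTR, whose median UTR was longer (1318 bases against 1097). The 5 genes with TTCCCAG were all lower, with log2 fold changes of −0.69 (Ctsl), −0.78 (Gusb), −0.90 (Ctsa), −0.95 (Psap) and −1.20 (Sgsh). Of the 32 without it 17 were lower as well, among them Arsb and Lgmn, which had the largest decreases. Over all tested genes with a UTR, 25.2% of those with TTCCCAG and 31.0% of those without were lower. The weaker site TCCCAGA, which pairs with bases 2 to 7 and ends in an A, stood without TTCCCAG in 4 of the 37 genes (10.8%, against 8.26% of tested genes with a UTR). Of these, Ctsb and Glb1 were lower, and Ctsc and Ctsd did not pass the threshold. The sites below, 1 for each of 4 genes, are in the orientation of the transcript. The match is in capitals (the 7 bases that pair with the seed and, in Ctsl and Sgsh, the A of the 8mer). The long UTRs of Ctsl (4761 bases) and Sgsh (3819 bases) are the longest annotated for each gene. These data do not show which transcript was used. Transcripts of any type with an annotated stop codon were taken, so such a stretch can hold bases that code for protein in other transcripts. The deposited gene length of Sgsh is 4414 bases. The Psap site starts at base 2 of its UTR of 868 bases.
Ctsl: atgtactctacTTCCCAGAgcaaaggtggt
Sgsh: agaaattgtacTTCCCAGAagatataggca
Psap: tTTCCCAGctgcagaagtcacctacttgtg
Gusb: tcaacttcaggTTCCCAGtgccaacctctg
Such matches are descriptions of sequence, not evidence that a site was bound.

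The promoters of lysosomal genes are shown because many hold the CLEAR element, a feature known to be common among them. RefSeq promoter windows (250 bases before to 50 after the start, GRCm38.p6) were found for 33 of the 37 genes. The core TCACGTG, searched on both strands, was in 12 of the 33 (36.4%), against 7.12% of 9483 tested genes with a window. Counted by window it was in 32.4% of those of the lysosomal genes and in 3.77% of all windows. Of the 12 genes with the core 6 were lower, 3 higher (Cln3, Gaa and Mcoln1) and 3 not past the threshold, at a median of −0.40 on the log2 scale. Of the 21 without it 13 were lower, 2 higher and 6 not past the threshold, with a median of −0.78. Genes with the core thus moved in both directions. A match is not a bound site, and a window without one says nothing about the factors. One core each is printed for 3 higher genes, 3 lower genes and Ctsd, the most abundant of the 37 genes per length. The core is in capitals, with 8 capitals where it reads the same on both strands.
Cln3, chr7:126583340-126583369, minus strand: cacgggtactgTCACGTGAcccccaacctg
Mcoln1, chr8:3500462-3500491, plus strand: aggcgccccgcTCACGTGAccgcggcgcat
Gaa, chr11:119267811-119267840, plus strand: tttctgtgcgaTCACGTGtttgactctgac
Lgmn, chr12:102439124-102439153, minus strand: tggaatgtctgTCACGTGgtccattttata
Naglu, chr11:101070009-101070038, plus strand: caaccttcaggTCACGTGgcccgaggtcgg
Sgsh, chr11:119355521-119355550, minus strand: ggcctgccgtgCACGTGAccgtggggagcg
Ctsd, chr7:142387908-142387937, minus strand: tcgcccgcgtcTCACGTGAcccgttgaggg

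The tested genes of the MiT/TFE family, which binds the CLEAR element, were lower or did not pass. Other factors were not examined here. Tfeb had 43.7 and 52.7 CPM in the control libraries and 9.16 and 7.97 CPM in the mimic libraries, a log2 fold change of −2.49 ± 0.18 (edgeR adjusted p = 3.24e-08). Mitf went from 58.2 ± 2.46 to 22.0 ± 3.63 CPM (−1.40 ± 0.16), while Tfe3 had 80.5 ± 8.3 against 75.7 ± 2.65 CPM and did not pass (−0.09 ± 0.13). Tfec had a single count in 1 mimic library and was not tested. So Tfeb and Mitf were lower in every mimic library than in any control library, and the groups overlapped for Tfe3.

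**Figure D2:**
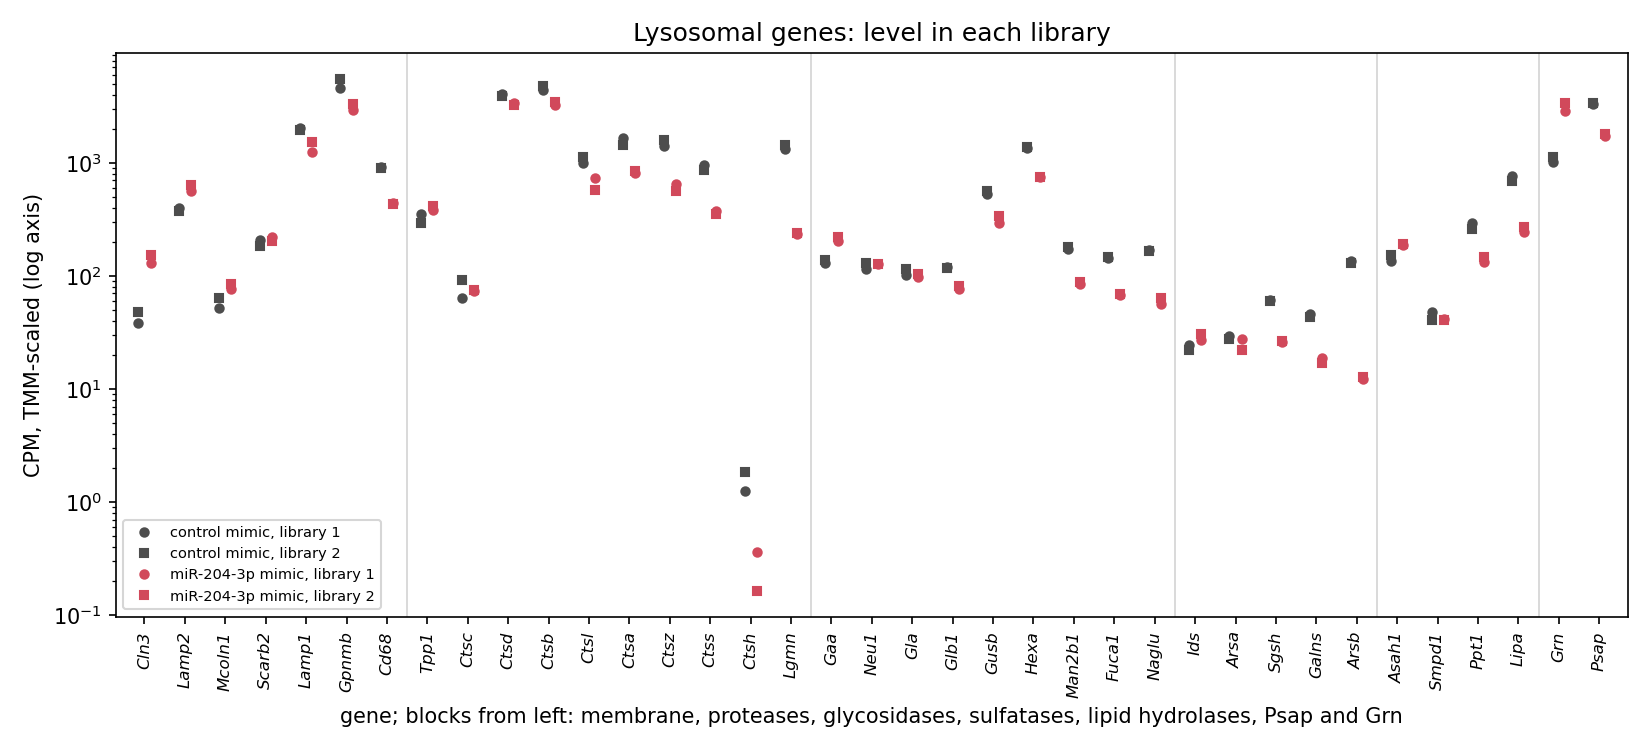
CPM of the 37 lysosomal genes in each of the 4 libraries on a log axis, with genes in blocks by role (membrane proteins, proteases, glycosidases, sulfatases, lipid hydrolases, then Grn and Psap). Dark grey points are control mimic and red points miR-204-3p mimic libraries (circles library 1, squares library 2), and levels run from 0.164 CPM for Ctsh to 5551 CPM for Gpnmb.

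Among the proteases, 7 of 10 genes were lower, none was higher and 3 missed the threshold, and the median was −0.79 on the log2 scale. Lgmn (ENSMUSG00000021190, mm10 chromosome 12, 102394084 to 102439813, minus strand) encodes legumain, an asparaginyl endopeptidase that also matures several cathepsins. It had 1334 and 1437 CPM in the control libraries and 235 and 242 CPM in the mimic libraries. That is 5.81-fold lower (−2.54 ± 0.13, edgeR adjusted p = 9.26e-10), with the mimic libraries close together and far below both controls. Ctss, the cathepsin that trims the invariant chain of MHC class II, had 952 and 857 CPM in the control against 373 and 350 CPM in the mimic libraries, 2.5-fold lower (−1.32 ± 0.13). Ctsz, a carboxypeptidase, had 1404 and 1605 against 654 and 558 CPM (−1.31 ± 0.13), again with no overlap of the groups.

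The other lower proteases were Ctsa, Ctsl, Ctsb and Ctsh. Ctsa, the carboxypeptidase that holds the enzymes encoded by Glb1 and Neu1 in a complex, fell by 0.90 on the log2 scale, and the endopeptidase genes Ctsl and Ctsb fell by 0.69 and 0.45. With library size alone neither Ctsl (log2 fold change −0.32, edgeR adjusted p = 0.0614) nor Ctsb (−0.08, adjusted p = 0.552) was called. The aminopeptidase gene Ctsh was hardly detected, at 18 and 26 counts in control libraries and 7 and 3 counts with the mimic, so its log2 fold change of −2.51 ± 0.58 is imprecise. On the other strand Ctsa overlaps Pltp, which had 5.11% as many counts as Ctsa and also fewer in the mimic libraries (1527 and 1458 against 470 and 396), and Neurl2, at 2.12% of its counts, which also had fewer (702 and 632 against 118 and 145). The 3 genes that did not pass were Ctsd, Ctsc and Tpp1. Ctsd, an aspartic protease, had 4100 and 3897 CPM in the control against 3382 and 3253 CPM in the mimic libraries, a log2 fold change of −0.27 (95% interval −0.52 to −0.02 before adjustment, edgeR adjusted p = 0.0568). That value lay just outside the threshold, and Ctsd was called lower with DESeq2 (−0.29), without the low-count filter (−0.28) and without mimic library 1 (−0.30) or 2 (−0.27), but was at 0.095 with library size alone. Of its annotated 50-base stretches 32.4% also occur in a read-through gene model, which had 0 counts. Ctsc, which activates granule serine proteases, had 63.8 and 92.5 CPM in the control libraries, a wider spread than the 74.2 and 75.4 CPM of the mimic libraries. Tpp1, a tripeptidyl peptidase, had 350 and 296 against 379 and 413 CPM, a log2 fold change of 0.29 (95% interval 0.01 to 0.57 before adjustment, adjusted p = 0.0638), which was called higher without mimic library 1 (0.35) and with library size alone (0.66). Proteases did not fall equally, and the ratio of Lgmn to Ctsd counts, which involves no scaling, was 0.325 and 0.369 in the control against 0.0694 and 0.0743 in the mimic libraries.

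Of the 9 glycosidase genes 6 were lower, 1 was higher and 2 did not pass, with a median of −0.78. Naglu, which removes N-acetylglucosamine from heparan sulfate, had 170 and 165 CPM in the control against 55.9 and 63.3 CPM in the mimic libraries, 2.81-fold lower (−1.49 ± 0.13, edgeR adjusted p = 2.20e-07). Fuca1, the fucosidase gene, had 143 and 146 CPM against 67.4 and 69.6 CPM (−1.07 ± 0.12). The mannosidase gene Man2b1 had 173 and 181 CPM against 84.7 and 89.0 CPM (−1.03 ± 0.12). In all 3 genes the replicates lay close together and the groups were well apart. Hexa, the alpha subunit of hexosaminidase, fell by 0.85 on the log2 scale, Gusb, which cleaves glucuronic acid from glycosaminoglycans, by 0.78 and the beta-galactosidase gene Glb1 by 0.59. The call of Glb1 was lost with library size alone (−0.22, adjusted p = 0.114), and Tmppe, which overlaps it on the same strand, had 81 and 102 control counts and 240 and 233 counts with the mimic. Gaa, the acid alpha-glucosidase that degrades glycogen, was the glycosidase gene that rose, from 130 and 137 CPM in the control to 204 and 219 CPM in the mimic libraries (1.58-fold, 0.66 ± 0.12, adjusted p = 3.47e-04). The sialidase gene Neu1 (116 and 131 against 126 and 126 CPM) and the alpha-galactosidase gene Gla (102 and 115 against 97.6 and 104 CPM) had overlapping groups. Their 95% intervals, −0.24 to 0.30 for Neu1 and −0.37 to 0.17 for Gla on the log2 scale, leave room for small differences in either direction.

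The sulfatase genes held the largest decrease of the 37. Arsb (ENSMUSG00000042082, mm10 chromosome 13, 93771630 to 93943016, plus strand) encodes arylsulfatase B, which acts on dermatan and chondroitin sulfate. It had 136 and 130 CPM in the control libraries and 12.2 and 12.7 CPM in the mimic libraries. Arsb was thus 10.7-fold lower (−3.42 ± 0.14, edgeR adjusted p = 1.39e-10), and its log2 fold change stayed between −3.59 and −3.06 in the 10 alternative fits. Galns, which acts on keratan sulfate, had 45.8 and 43.1 CPM against 18.9 and 17.1 CPM (−1.30 ± 0.15). Sgsh, the heparan sulfate sulfamidase, had 61.6 and 59.8 CPM against 26.2 and 26.5 CPM (−1.20 ± 0.14). Both were lower in every mimic library, and Card14, which overlaps Sgsh on the other strand, had 20.2% as many counts as Sgsh and also fewer in the mimic libraries (188 and 163 against 102 and 96). Arsa, the cerebroside sulfatase, had 29.4 and 27.6 against 27.7 and 22.2 CPM, and Ids, which acts on heparan and dermatan sulfate, 24.5 and 22.3 against 27.4 and 30.7 CPM. Neither passed, at log2 fold changes of −0.19 ± 0.17 and 0.31 ± 0.16, though for Ids the groups did not overlap and the call was made with library size alone (0.67). The ratio of Arsb to Arsa counts within a library was 4.62 and 4.73 in the control against 0.439 and 0.573 in the mimic libraries.

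Of the 4 lipid hydrolase genes 2 were lower, 1 was higher and 1 did not pass. Lipa, the acid lipase that frees cholesterol and fatty acids from engulfed lipoproteins, had 757 and 689 CPM in the control against 245 and 270 CPM in the mimic libraries, 2.81-fold lower (−1.49 ± 0.13, edgeR adjusted p = 2.05e-07). Ppt1, which removes palmitate from proteins, had 293 and 260 against 132 and 147 CPM (−0.99 ± 0.13). On the other strand Ppt1 overlaps Cap1, whose counts over the 4 libraries were 365% of those of Ppt1 (11860 and 11449 control counts, 12579 and 12036 with the mimic), and counting was not stated to use strand. Asah1, the acid ceramidase gene, rose from 134 and 152 to 187 and 193 CPM (0.41 ± 0.13, adjusted p = 0.0118), a call lost without control library 1 (0.31, adjusted p = 0.14). Smpd1, the acid sphingomyelinase, had 47.5 and 41.0 against 41.7 and 40.7 CPM, with overlapping groups. Lipa and Ppt1 were thus lower in each mimic library, and Asah1 higher.

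Psap and Grn, which encode precursors that are cut into small lysosomal proteins, moved in opposite directions. Psap gives the saposins, cofactors of sphingolipid hydrolases, and had 3341 and 3400 CPM in the control against 1715 and 1782 CPM in the mimic libraries, 1.93-fold lower (−0.95 ± 0.12, edgeR adjusted p = 7.94e-06). Grn (ENSMUSG00000034708, mm10 chromosome 11, 102430315 to 102437048, plus strand) gives progranulin and the granulins, and had 1021 and 1131 CPM in the control against 2846 and 3349 CPM in the mimic libraries. Grn was 2.88-fold higher (1.53 ± 0.13, adjusted p = 2.01e-07). The ratio of Grn to Psap counts was 0.306 and 0.333 in the control against 1.66 and 1.88 in the mimic libraries, so the order of both genes turned in every library of the mimic group. Per kilobase of the gene lengths in the deposited table, Grn went from 310 ± 22.5 to 892 ± 102 CPM per kb, and from place 12 to place 2 among the 37 genes. Ctsd was first in both groups on this scale, at 1701 ± 61.1 and 1411 ± 39.1 CPM per kb, and Psap fell from 1228 ± 15.3 to 637 ± 17.2 CPM per kb.

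**Figure D3:**
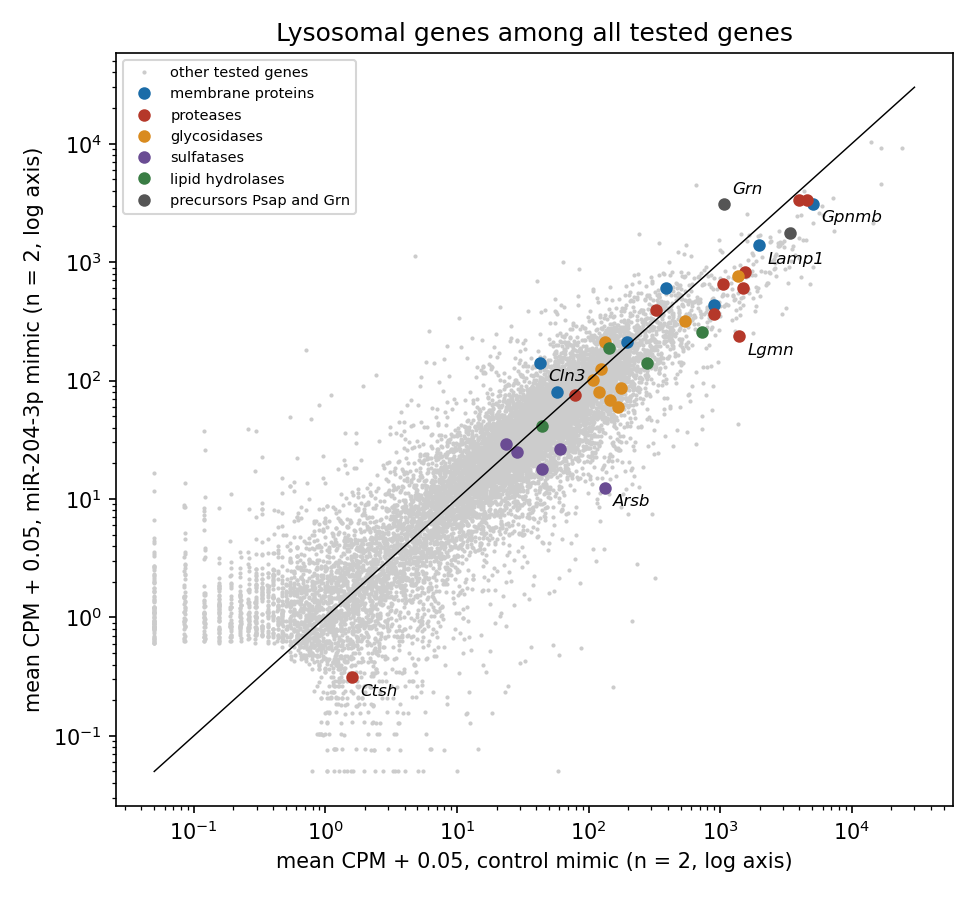
Mean CPM + 0.05 of each tested gene in control mimic (horizontal) and miR-204-3p mimic libraries (vertical), both on log axes with n = 2, with lysosomal genes coloured by role and the line of equal values. Most coloured points lie below the line, with Arsb at 133 against 12.4 CPM and Lgmn at 1386 against 238 CPM, while Grn lies above it at 1076 against 3098 CPM.

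The 7 membrane protein genes were split, 3 higher, 3 lower and 1 not past the threshold. Cln3 (ENSMUSG00000030720, mm10 chromosome 7, 126571207 to 126585817, minus strand), whose human counterpart is mutated in juvenile Batten disease, had 38.1 and 47.8 CPM in the control against 131 and 152 CPM in the mimic libraries. It was 3.3-fold higher (1.72 ± 0.14, edgeR adjusted p = 1.81e-07), the largest increase of the 37 genes. Its overlapping neighbour on the other strand, Apobr, had 706 and 659 control counts and 825 and 474 counts with the mimic, where Cln3 had 549 and 673 and then 2519 and 2786 counts, so Apobr counts did not rise in both mimic libraries. Lamp2, which serves in the fusion of lysosomes and in chaperone-mediated autophagy, had 399 and 377 against 568 and 638 CPM (1.55-fold, 0.64 ± 0.12, adjusted p = 5.28e-04). Mcoln1, the calcium channel TRPML1, had 51.5 and 63.8 against 76.8 and 84.6 CPM (0.49 ± 0.14), a call lost with gene-length offsets (0.26, adjusted p = 0.125) and without control library 1 (0.33, adjusted p = 0.13).

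The 3 lower membrane genes were Cd68, Gpnmb and Lamp1. Cd68, a heavily glycosylated macrophage protein related to the LAMP family, had 914 and 897 CPM in the control against 440 and 428 CPM in the mimic libraries (2.09-fold lower, −1.06 ± 0.12, edgeR adjusted p = 3.39e-06). Gpnmb, a glycoprotein of macrophages and melanocytes, had 4559 and 5551 against 2935 and 3302 CPM (−0.70 ± 0.13), and Lamp1, a major glycoprotein of the lysosomal membrane, 2020 and 1962 against 1242 and 1525 CPM (−0.52 ± 0.13). Every mimic library lay below both control libraries in these 3 genes, but with library size alone Lamp1 was not called (−0.16, adjusted p = 0.275). Scarb2, the receptor that carries glucocerebrosidase to lysosomes, had 207 and 183 against 221 and 203 CPM, with overlapping groups (0.12 ± 0.13). The ratio of Lamp2 to Lamp1 counts, which is free of scaling, was 0.197 and 0.192 in the control against 0.457 and 0.418 in the mimic libraries.

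In further lists of lysosomal genes, which hold none of the 37, hydrolases and cofactors were mostly lower. Membrane proteins and transporters were more often higher. Over all tested genes 29.7% were lower and 31.1% higher. Of 30 tested further hydrolases and their cofactors 19 were lower and 4 higher (63.3% and 13.3%), with a median of −0.48, and one of the higher ones, Ctsk, passed the low-count filter only through the mimic libraries. This list is not purely luminal, as it also holds the membrane-bound Hgsnat (−0.71) and Pld3 (−0.46), both lower. Pla2g15, a lysosomal phospholipase, fell from 165 ± 15.8 to 21.2 ± 0.828 CPM and the cathepsin gene Ctsf from 206 ± 0.137 to 33.0 ± 1.71 CPM, while the carboxypeptidase gene Scpep1 rose from 220 ± 16.7 to 780 ± 78 CPM and the cathepsin gene Ctso from 42.2 ± 2.52 to 63.7 ± 1.39 CPM. Of 23 tested further membrane proteins and transporters, a list that also holds the soluble partner Npc2, 12 were higher and 5 lower (52.2% and 21.7%), with a median of 0.42. Npc1, which exports cholesterol from lysosomes, rose from 83.4 ± 8.8 to 434 ± 44.2 CPM, and the chloride-proton exchanger gene Clcn7 from 48.9 ± 2.24 to 133 ± 14.4 CPM. Npc2, the luminal cholesterol carrier that hands cholesterol to Npc1, fell from 756 ± 30.9 to 362 ± 4.15 CPM, and the ion channel gene Tpcn1 from 212 ± 8.12 to 99.1 ± 6.99 CPM. Npc1 counts per Npc2 count were 0.0992 and 0.122 in the control against 1.10 and 1.30 in the mimic libraries. Among the 30 luminal genes of the 37, 19 were lower and 3 higher, beside 3 and 3 of the 7 membrane genes. The difference between luminal and membrane genes was not tested.

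**Figure D4:**
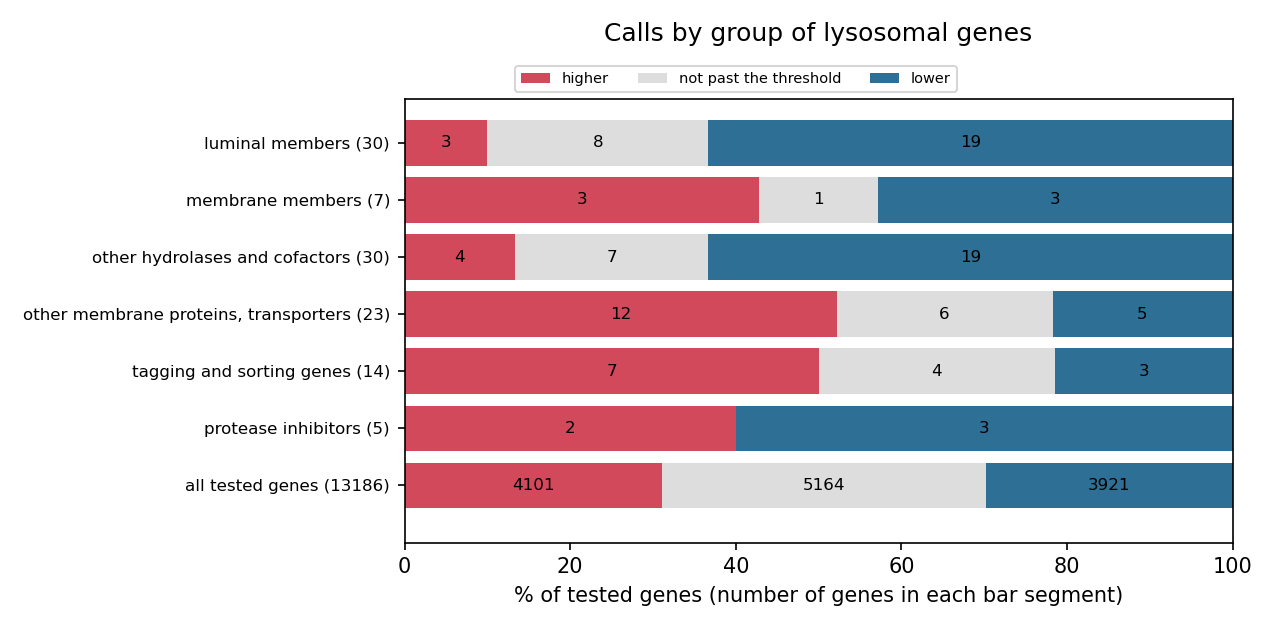
Share of tested genes called higher, not past the threshold or lower in each group of lysosomal genes and in all tested genes, with the number of genes written in each segment. Lower genes make up 19 of 30 luminal members and 19 of 30 other hydrolases, against 5 of 23 other membrane proteins and transporters and 3921 of 13186 tested genes.

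Genes listed for the tagging and sorting of lysosomal enzymes were more often higher than lower, 7 higher and 3 lower of 14 tested, with a median of 0.39. That is 50% higher and 21.4% lower, against 31.1% and 29.7% of all tested genes. The list also holds the sulfatase-modifying factor genes Sumf1 (−0.02) and Sumf2 (−0.50), neither past the threshold. The subunits of the phosphotransferase that makes the phosphomannose tag moved apart. Gnptg, its gamma subunit, rose from 6.33 ± 1.5 to 28.2 ± 0.611 CPM, and Gnptab, which encodes the alpha and beta subunits, fell from 166 ± 37.7 to 88.5 ± 0.561 CPM. Gnptg counts per Gnptab count were 0.0274 and 0.0532 in the control against 0.313 and 0.325 in the mimic libraries. Nagpa, the enzyme that uncovers the tag, fell by 1.11 on the log2 scale, and Igf2r, which encodes the larger tag receptor, rose by 0.96 ± 0.13. M6pr, which encodes the smaller tag receptor and was picked after its values were seen, fell from 303 and 334 to 221 and 202 CPM (−0.59 ± 0.13), so the receptor genes moved in opposite directions. Of 5 tested protease inhibitor genes 3 were lower and 2 higher, one of the lower ones, Serpinb1a, having passed the low-count filter only through the control libraries. Cst3, which encodes the secreted cathepsin inhibitor cystatin C, fell 7.02-fold, from 1782 ± 138 to 254 ± 11.4 CPM, and Cst7, which encodes cystatin F, fell from 35.2 ± 0.465 to 1.37 ± 0.707 CPM. The cytosolic inhibitor genes Cstb and Serpinb6a rose by 0.55 ± 0.14 and 0.51 ± 0.12. The call of Cstb was lost without control library 1 (0.39, edgeR adjusted p = 0.0642).

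Marker lists of other cell types that marrow cultures could hold were examined in the same libraries, and their sums rest on a few genes each. The summed level of 5 B cell markers was 250 and 225 CPM in the control against 3.38 and 3.71 CPM in the mimic libraries, nearly all of it Ighm, with Ms4a1 at 0 counts in every library, and 3 of 3 tested genes were lower, Cd79a and Cd79b having passed the low-count filter only through the control libraries. The sum of 8 neutrophil markers was 174 and 241 against 15.7 and 11.5 CPM, mostly Prtn3 and Csf3r, with Ly6g at 0 counts in every library. Of 4 tested neutrophil genes 3 were lower, Prtn3 and Elane having passed the filter only through the control libraries. S100a8, at 6 and 8 control counts and 13 and 17 counts with the mimic, did not pass the threshold (log2 fold change 0.69). It passed the filter only through the mimic libraries. Camp (1 and 0 control counts, 6 and 6 with the mimic) and Mpo (0 and 0, then 1 and 8) were not tested. The sum of 7 dendritic cell markers was 46.9 and 38.1 against 4.48 and 4.75 CPM, mostly Itgax, with Cd209a at 0 counts. Of 4 tested dendritic cell genes 2 were lower, Itgax and Siglech, the latter having passed the filter only through the control libraries. Zbtb46 (log2 fold change −0.33) and Xcr1 (1.05) did not pass the threshold. Xcr1 had 6 and 9 control counts and 15 and 26 counts with the mimic, and passed the filter only through the mimic libraries. The sum of 7 osteoclast markers was 122 and 139 against 63.4 and 62.2 CPM, mostly Acp5, itself a lysosomal phosphatase that also stands among the further hydrolases, with Calcr at 0 counts. Of 5 tested osteoclast genes 3 were lower, Ocstamp having passed the filter only through the control libraries, and 2 higher, Ctsk and Mmp9, which passed it only through the mimic libraries. Fibroblast markers, 5 genes, summed to at most 0.437 CPM and T and NK cell markers, 6 genes, to at most 0.485 CPM, so both were near the floor of 3 counts, which is 0.156 to 0.213 CPM. The part of these markers, and of the macrophage markers above, in the changes of lysosomal genes was not tested.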

How the data were processed

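The authors deposited 1 table of unnormalised counts, whole numbers for each gene, with 1 column for each of the 4 libraries of bone marrow-derived macrophages. Per the labels' protocols, library preparation used a NEBNext Ultra kit. HISAT2 and mm10 are named in the submitters' processing notes, and what version and counter were run, and whether strand was used, is not given in the sources used here. Gene lengths in bases are also in the table, and how they were computed is not stated. All 37 genes had the coordinates of GENCODE vM21.

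Groups were compared with edgeR 4.0.16 under R 4.3.3 (glmQLFit and glmQLFTest, two-sided, TMM factors, filterByExpr, group as the single term), and p-values over the 13186 tested genes were adjusted by Benjamini-Hochberg, with a threshold of 0.05. DESeq2 1.42.0 and 9 further edgeR fits served as alternatives. CPM were scaled with TMM factors of 0.878 and 0.886 for control and 1.14 and 1.13 for mimic libraries. Standard errors came from the F statistic. The fit was also run on simulated counts, in which few genes changed, equally often up and down. That run cannot test the TMM scaling of data in which most genes were called. The 95% intervals and floors of 3 counts cover counting or replicate error only. The genes, lists and tests were chosen with earlier results of these data known. All 37 genes are accounted for, with values per library for up to 3 per role and direction and for most others. Of each further list up to 2 genes per direction with the lowest p are named, plus the MiT/TFE and macrophage marker genes, and exceptions are stated where they appear. Seed sites were sought after the annotated stop codon in GENCODE vM21 transcripts of any type, and promoters and the microRNA come from RefSeq (GRCm38.p6).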

Additional observations from a re-analysis of the deposited data

How the results depend on the processing

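Over the 10 alternative fits, 18 to 23 of the 37 lysosomal genes were lower and 4 to 10 higher. With library size alone 10 were higher and 18 lower, with a median log2 fold change of −0.32 beside 0.40 for all tested genes, of which 6151 were higher and 2513 lower (71.0% of calls higher, against 51.1% with TMM). Leaving out 1 library at a time gave medians of −0.78 to −0.62, and without control library 1 only 4 genes were higher. Directions turned in genes that had not passed: with library size alone Ctsc (0.30), Ctsd (0.095), Gla (0.26), Arsa (0.18), Smpd1 (0.26) and Tfe3 (0.28), with gene-length offsets Scarb2 (−0.062), and on leaving out single libraries Ctsc (without control library 2, 0.22), Neu1 (without control library 1, range −0.066 to 0.11) and Tfe3 (without control library 2, range −0.20 to 0.011). The cause was not tested. Scarb2, Tpp1, Neu1 and Ids were higher with library size alone, and Tfe3 was lower with gene-length offsets (−0.34). Same-numbered libraries did not deviate together (Pearson r = 0.02 across genes). With 2 libraries a group, this cannot show whether same-numbered libraries have a common origin. With the replicate block 22 genes were lower and 6 higher, with a median of −0.69, and no call among the 37 genes changed. Depth limits Ctsh most, with 3 to 26 counts per library, and 2 libraries a group limit how small a difference could be called.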

Other observations

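Gaa and Sgsh lie 58.0 kb apart on chromosome 11 (mm10) and moved in opposite directions, with Gaa counts per Sgsh count of 2.10 and 2.29 in the control against 7.78 and 8.26 in the mimic libraries. Smpd1 and Tpp1 lie 186 kb apart on chromosome 7, and neither passed the threshold. Within the complex of beta-galactosidase, sialidase and the protective carboxypeptidase, Neu1 counts per Glb1 count were 0.960 and 1.12 in the control against 1.65 and 1.54 in the mimic libraries, with Ctsa and Glb1 lower. Of 2 genes whose human counterparts are mutated in infantile and late infantile neuronal ceroid lipofuscinosis, Tpp1 had 1.19 and 1.14 counts per Ppt1 count in the control against 2.88 and 2.80 in the mimic libraries. Trpm3, the host gene of miR-204, had 4 to 9 counts per library and was not tested.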
